A study of Mus musculus with 51 samples.

Results

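The Polycomb and H3K27 methylation genes followed here are 8 genes: Ezh1, Ezh2, Eed, Suz12, Jarid2, Ring1, Rnf2 and Kdm6b. They were chosen by name, as all 25 probe sets whose platform annotation carries exactly 1 of these symbols, out of 45101 probe sets and 18193 named genes. This choice, like that of the gene lists below, was made with earlier results of these data known. Shares of members or list genes called, set beside those of all genes, are therefore a description and no test of enrichment. Each gene was read from its most variable probe set (by SD across the 51 arrays), called its main probe set, and its other probe sets are given where they differ. The SD includes differences between groups, whatever their direction.

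The data are 51 Affymetrix mouse arrays, and every array carried amplified RNA from a single oocyte or embryo. There were 3 metaphase II (MII) oocytes, 3 embryos made by in vitro fertilisation (IVF) at each of 6 stages, and 5 embryos cloned by nuclear transfer from Sertoli cells at each of the same stages. The 1-cell, 2-cell, 4-cell, 8-cell, morula and blastocyst stages were collected 16, 32, 48, 62, 72 and 84 hours after sperm was added or the oocyte was activated. The series followed gene expression of clones over preimplantation development beside that of fertilised embryos. MII oocytes were B6D2F1, and the labels list them under the IVF method. IVF embryos were B6D2F1 × B6D2F1. Clones carried the nucleus of a B6CBF1 Sertoli cell, the support cell of the testis, in a B6D2F1 oocyte, so genotype and method of reconstruction cannot be told apart. All embryos were cultured in KSOM, and each array is 1 embryo, so p-values measure the spread between embryos together with that of their arrays. A whole embryo was measured, so fewer cells of a type and less RNA per cell cannot be told apart.

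Polycomb repressive complex 2 (PRC2) places methyl groups on lysine 27 of histone H3. EZH2 or EZH1 is its catalytic subunit, SUZ12 holds the complex together, EED binds the finished mark and stimulates the enzyme, and JARID2 is an accessory subunit that aids its recruitment to chromatin. Polycomb repressive complex 1 (PRC1) adds ubiquitin to histone H2A through RING1 or RNF2 (RING1B), while KDM6B is a demethylase that removes the H3K27 mark. In mice the growing oocyte lays down H3K27 methylation that can keep maternal alleles silent in the early embryo, and a somatic donor nucleus has not passed through that process.

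The promoters of the 4 PRC2 core genes are shown as a description, and no link between their letters and the transcripts was tested. They are from RefSeq (GRCm38.p6), run 5′ to 3′ on the gene's strand and cover 250 bases before to 50 bases after the start listed there. They lie at chr6:47594981-47595280 (Ezh2, minus strand), chr11:101226414-101226713 (Ezh1, minus strand), chr7:89980927-89981226 (Eed, minus strand) and chr11:79992856-79993155 (Suz12, plus strand). Capitals mark E2F sites (TTTGGCGC or TTTCCCGC) and CCAAT boxes (CCAAT, read as ATTGG on the other strand).
Ezh2: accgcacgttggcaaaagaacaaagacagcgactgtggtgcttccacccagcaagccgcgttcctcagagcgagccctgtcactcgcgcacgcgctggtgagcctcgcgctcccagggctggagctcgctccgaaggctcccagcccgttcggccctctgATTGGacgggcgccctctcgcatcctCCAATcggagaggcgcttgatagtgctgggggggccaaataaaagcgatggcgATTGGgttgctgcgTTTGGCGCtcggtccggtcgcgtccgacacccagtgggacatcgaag
Ezh1: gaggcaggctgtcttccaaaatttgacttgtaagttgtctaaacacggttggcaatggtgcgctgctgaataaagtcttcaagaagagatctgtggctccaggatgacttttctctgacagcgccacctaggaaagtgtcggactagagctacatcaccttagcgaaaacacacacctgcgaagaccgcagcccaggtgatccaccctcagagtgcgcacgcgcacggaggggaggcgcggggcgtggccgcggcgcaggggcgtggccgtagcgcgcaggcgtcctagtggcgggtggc
Eed: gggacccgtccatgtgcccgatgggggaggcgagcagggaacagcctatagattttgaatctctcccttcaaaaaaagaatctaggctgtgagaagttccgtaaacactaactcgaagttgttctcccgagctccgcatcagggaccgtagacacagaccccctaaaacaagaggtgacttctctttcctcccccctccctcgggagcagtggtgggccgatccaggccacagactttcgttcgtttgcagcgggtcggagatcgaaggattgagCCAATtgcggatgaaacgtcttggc
Suz12: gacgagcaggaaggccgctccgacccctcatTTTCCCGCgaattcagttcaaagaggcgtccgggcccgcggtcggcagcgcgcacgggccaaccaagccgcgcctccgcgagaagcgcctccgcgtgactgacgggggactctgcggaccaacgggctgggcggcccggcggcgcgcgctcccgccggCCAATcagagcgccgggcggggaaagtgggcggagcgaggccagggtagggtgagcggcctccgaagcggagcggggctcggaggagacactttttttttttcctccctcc
The Ezh2 promoter held CCAAT at positions -90, -64 and -11 and TTTGGCGC at position 4, counted from the start at 1. The Suz12 promoter held TTTCCCGC at -219, CCAAT at -61 and the GC box GGGCGG at -91, -47 and -34. The Eed promoter held CCAAT at 26, and in the Ezh1 window none of the letters searched was present. Both strands were searched for these letters and for TATAAA, TGACGTCA and the YY1 site GCCATNTT, and the motifs were settled with matches in view. Of 32851 promoters of 300 bases, 0.514% held TTTGGCGC, 1.07% TTTCCCGC, 37.4% CCAAT, 35.7% GGGCGG, 13.6% TATAAA, 1.79% TGACGTCA and 6.05% GCCATNTT. The promoters of Jarid2, Ring1 and Rnf2 were searched too, and GGGCGG was found in all 3. The first Jarid2 start held GCCATNTT at -14 and the second TATAAA at -31. The promoters of these 7 genes held 17 to 41 CpG dinucleotides, against a median of 7 over all promoters, and 31.4% of all promoters held 17 or more.

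The deposited values are log2 numbers centred on a baseline of each probe set, so they show differences between arrays and no absolute level. Marker lists followed the labelled stages: the mean of 9 oocyte genes was 7.25 in MII oocytes and near -2.45 in IVF blastocysts, and that of 10 trophectoderm genes was 5.14 in IVF and 5.15 in cloned blastocysts. The mean of 13 Sertoli cell markers was higher in every clone than in every IVF embryo at the morula (0.54 to 1.18 against -0.19 to -0.06) and the blastocyst (0.15 to 0.36 against -0.36 to 0.08), and the ranges overlapped at the other 4 stages. Centred values cannot show whether a marker is absent. The spiked hybridisation controls (18 probe sets) differed between clones and IVF embryos without overlap at 4 stages, by -1.01 at 1-cell, 1.27 at 2-cell, 1.30 at 4-cell and 0.83 at 8-cell (exact permutation test, two-sided, p = 0.0357 each, adjusted over 6 stages 0.0536, the smallest p that 5 against 3 allows being 0.0357 for these mean differences). Cloned 1-cell arrays split on these controls, with -1.02 to -0.71 in replicates 1 to 3 and 0.35 and 0.50 in replicates 4 and 5. Their Actb 3′ minus 5′ control difference split likewise (-0.02 to 0.41 against -2.45 and -1.69). Ezh2, Ezh1, Eed and Suz12 also separated these 2 sets of clones, while Jarid2, Ring1, Rnf2 and Kdm6b did not. How many of all genes separate them was not counted, so this is a description only. The part of this split in the 1-cell results was not tested. The Y-linked gene Eif2s3y is a check of the male donors. In 1 array labelled as a cloned 8-cell embryo, replicate 4, it was -5.25, within the range of IVF 8-cell embryos (-5.50 to 2.20), while the other clones from the 2-cell stage on lay between -2.70 and 2.47. The named calls at or between stages that use cloned 8-cell embryos are therefore also given without it. IVF embryos held both high and low Eif2s3y values: 0.53, -5.48 and -5.38 at 4-cell and -5.42, -5.50 and 2.20 at 8-cell. Sex was thus not balanced between IVF embryos and clones of male donors, and its part was not tested.

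All 8 genes varied over the stages, both in the 21 MII and IVF arrays and in the 30 clone arrays (limma moderated F test, adjusted p at most 0.0309 and 0.000845). Over all genes 68.6% passed this test in the MII and IVF series and 77.5% in the clones. Of 48 tests of a member between clones and IVF embryos, 6 were past an adjusted p of 0.05, 2 higher and 4 lower in clones, which is 12.5% beside 3.99% over all genes. These were Jarid2 at 1-cell, Ezh2 at 4-cell, Ezh1 and Rnf2 at 8-cell, and Ezh1 and Rnf2 at the blastocyst. With the hybridisation controls as a covariate 5 of the 6 calls were lost, Rnf2 at the blastocyst was kept, and Ezh1 at 1-cell was gained. In those fits 0 of 18193 genes were called at 2-cell and at 4-cell, 17 at 8-cell and 7 at the morula. At 1-cell 533 and at the blastocyst 340 were called. The controls separated the series without overlap at each stage up to 8-cell. A call lost there cannot tell a member's difference from that of the controls. Averaged over the 6 stages, Ezh2, Ezh1 and Eed were lower in clones, 3 of 8 members beside 20.1% of all genes. The Ezh1 average of -0.41 ± 0.11 (adjusted p = 0.00531) mixed directions. Its differences were 0.75 at 1-cell, 0.09 at 2-cell, -0.68 at 4-cell, -2.05 at 8-cell, 0.36 at the morula and -0.95 at the blastocyst. Ezh2 was above 0 at the blastocyst (0.15) and Eed at 1-cell (0.03). Adjusted p-values are from limma with the Benjamini-Hochberg method over 18193 genes, and differences carry their standard error.

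**Figure D1:**
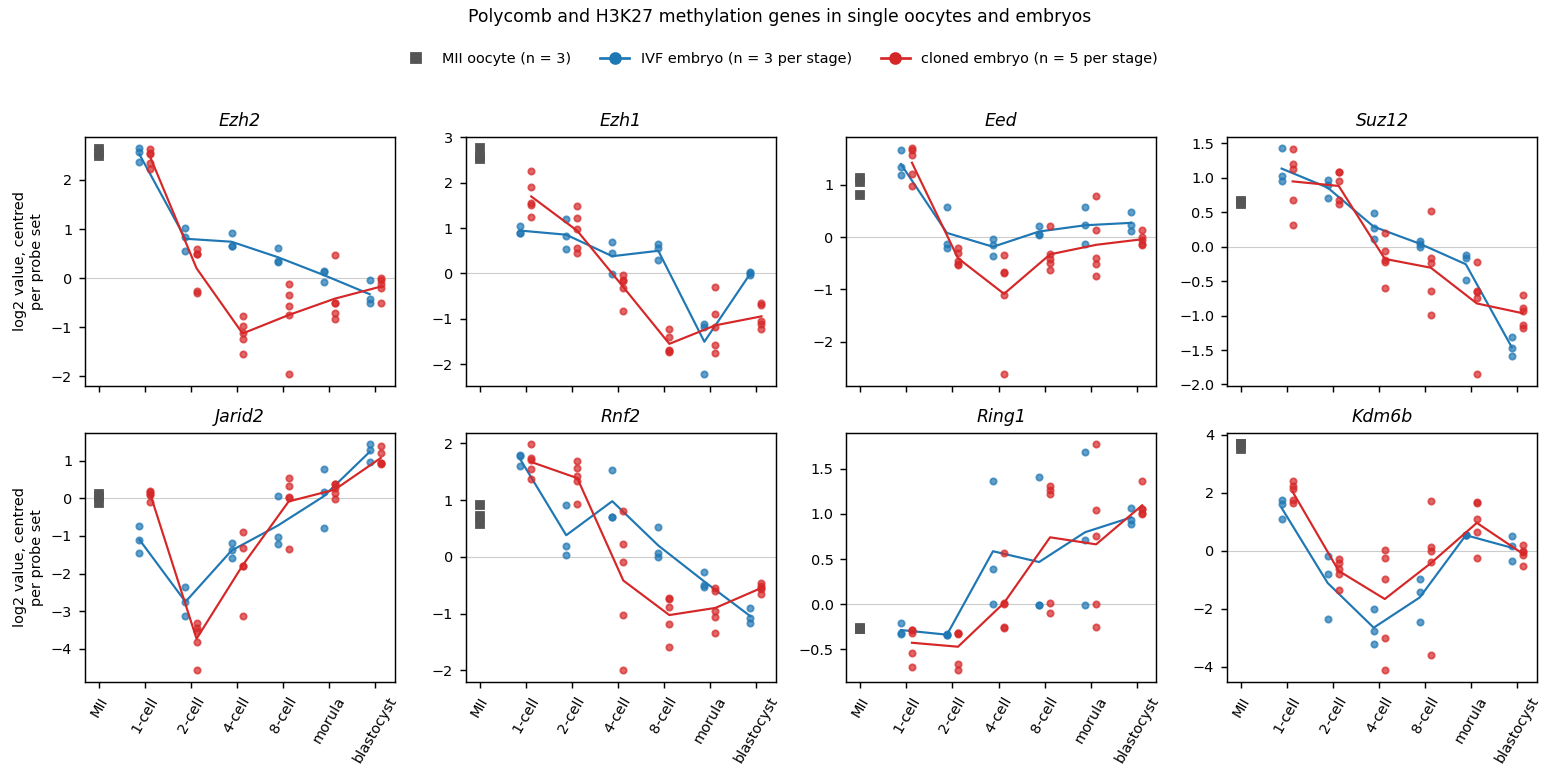
Log2 values, centred per probe set, of the 8 genes in each oocyte (grey squares), IVF embryo (blue) and clone (red) by stage, with lines through the group means. The 5 cloned 4-cell embryos lie below all 3 IVF 4-cell embryos for Ezh2, and the 5 cloned 8-cell embryos lie below all 3 IVF embryos for Ezh1.

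Ezh2, the main catalytic subunit of PRC2, was highest in oocytes and zygotes and fell at the 2-cell stage in both series. MII oocytes read 2.64, 2.49 and 2.55, and IVF 1-cell embryos 2.36, 2.56 and 2.65. IVF 2-cell embryos read 0.83, 0.54 and 1.03, below every zygote, a fall of 3.29-fold (difference -1.72 ± 0.14, adjusted p = 8.36e-08). In clones the same step fell by 2.25 ± 0.27 (adjusted p = 8.01e-08), from a mean of 2.46 to a mean of 0.20. IVF 4-cell embryos read 0.92, 0.65 and 0.65, with a step of -0.06 ± 0.14 from the 2-cell stage, while clones fell again, by 1.33 ± 0.27 (adjusted p = 0.000374). Cloned 4-cell embryos read -1.54, -1.24, -0.77, -1.11 and -0.98, so every clone lay below every IVF embryo. Ezh2 was 3.65-fold lower in clones at that stage (difference -1.87 ± 0.17, adjusted p = 0.00678), the only member called among 8 where 2.26% of all genes were called. The call held when each of the 8 arrays was left out in turn, with adjusted p from 0.00979 to 0.0275. With the hybridisation controls as a covariate the difference was -2.99 ± 0.50 and no longer past the threshold (adjusted p = 0.518), in a fit that called 0 of 18193 genes. The Gapdh 3′ minus 5′ control difference was also higher in cloned 4-cell embryos without overlap, by 1.64 (exact permutation test, p = 0.0357, adjusted 0.107). The mean of 4 genes of the 2-cell embryo was between -0.92 and 2.01 in cloned and between 4.38 and 5.28 in IVF 4-cell embryos, that of 7 inner cell mass genes between -1.01 and 0.01 against 0.34 and 1.73, and that of 9 oocyte genes between -0.41 and 0.39 against 0.53 and 0.89. The part of these marker lists in the Ezh2 result was not tested.

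Cloned 8-cell embryos read -0.12, -0.35, -0.57, -1.96 and -0.76 for Ezh2, against 0.32, 0.62 and 0.34 in IVF embryos. The groups did not overlap, but the difference of -1.18 ± 0.41 was not past the threshold (adjusted p = 0.127). Without the array labelled replicate 4, the lowest of the 5, it was -0.88 ± 0.17 (adjusted p = 0.0511), and with the hybridisation controls as a covariate it was 0.09 ± 0.42. At the morula 4 of 5 clones lay between -0.84 and -0.50, below the IVF range of -0.07 to 0.15, and replicate 4 read 0.47. At the blastocyst the ranges overlapped (difference 0.15 ± 0.15). Averaged over the 6 stages Ezh2 was lower in clones by 1.60-fold (difference -0.67 ± 0.11, adjusted p = 1.74e-05), a call kept under the 7 alternatives run for it, which did not include the hybridisation covariate, and with each of 48 arrays left out. In IVF embryos the order of the Ezh2 means ran from MII through each stage in turn to the blastocyst, and only MII and 1-cell, 2-cell and 4-cell, and morula and blastocyst overlapped as neighbours. In clones the 4-cell stage was lowest, and from the 2-cell stage on all neighbours in the order overlapped.

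Ezh1, the alternative catalytic subunit, was highest in oocytes and lower in zygotes of both series. MII oocytes read 2.57, 2.76 and 2.53 and IVF 1-cell embryos 0.90, 0.89 and 1.04, a 3.19-fold fall without overlap (difference -1.67 ± 0.25, adjusted p = 6.33e-05). After another quantile normalization this call and the other 4 member calls of the step were lost (Ezh1 adjusted p = 0.213). Cloned 1-cell embryos lay between 1.24 and 2.27, below all oocytes and above all IVF zygotes. Their difference from the same 3 oocytes was -0.92 ± 0.23 (adjusted p = 0.0293), and from IVF zygotes 0.75 ± 0.23, not past the threshold (adjusted p = 0.130), but 1.30 ± 0.11 with the hybridisation controls as a covariate (adjusted p = 0.0126). The call against oocytes was lost without any 1 of the oocytes or without clone 1 or 2, and after another quantile normalization (-0.71, adjusted p = 0.154). The 2 comparisons with MII share those oocytes. IVF 8-cell embryos read 0.65, 0.55 and 0.30, while clones read -1.22, -1.74, -1.40, -1.71 and -1.68. Every clone was below every IVF embryo, by 4.14-fold (difference -2.05 ± 0.15, adjusted p = 0.0017). Without the array labelled replicate 4 the difference was -2.01 ± 0.16 (adjusted p = 0.00647), and with the hybridisation controls as a covariate -1.66 ± 0.20 (adjusted p = 0.0877). As a mean of its 4 probe sets Ezh1 differed by -0.71 ± 0.09 (adjusted p = 0.0115).

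IVF embryos reached a low Ezh1 value at the morula, with -2.22, -1.18 and -1.11, and cloned morulae lay between -1.75 and -0.31. IVF blastocysts then returned to 0.00, -0.02 and 0.03, while cloned blastocysts stayed at -1.22, -0.69, -1.12, -0.66 and -1.04. The blastocyst difference was -0.95 ± 0.14, or 1.93-fold (adjusted p = 0.0178). It lost the threshold when any of the 3 IVF blastocysts was left out (adjusted p from 0.053 to 0.0602) and with the hybridisation controls as a covariate (-1.01 ± 0.19, adjusted p = 0.0627), and was -0.36 ± 0.08 as a mean of 4 probe sets (adjusted p = 0.0439). In the IVF series Ezh1 fell by 2.00 ± 0.25 from 8-cell to morula and rose by 1.505 ± 0.25 from morula to blastocyst (adjusted p = 3.9e-05 and 0.000454). In clones it fell by 0.76 from 1-cell to 2-cell, by 1.24 from 2-cell to 4-cell and by 1.25 from 4-cell to 8-cell (adjusted p = 0.0116, 0.000216 and 0.0014), with differences of 0.41 and 0.20 at the last 2 steps, neither past the threshold. Without the 8-cell array labelled replicate 4 the 4-cell to 8-cell step was -1.21 (adjusted p = 0.00419). The 1-cell to 2-cell step was 0.15 after another quantile normalization (adjusted p = 0.888). As a mean of 4 probe sets this call was lost too. So were the clone fall from 4-cell to 8-cell (adjusted p = 0.0839) and the IVF rise from morula to blastocyst (adjusted p = 0.0756). The change from 8-cell to morula differed between clones and IVF embryos by 2.41 ± 0.37 (interaction, adjusted p = 2.98e-05, and 2.37 with adjusted p = 6.06e-05 without that array), and that from 4-cell to 8-cell by -1.37 ± 0.37 (adjusted p = 0.0484). The second of these was past the threshold in 17 of 48 fits that left out 1 array, and without the cloned 8-cell array labelled replicate 4 it was -1.33 (adjusted p = 0.0613). It was also lost under 5 of 7 processing alternatives: every probe set tested, the SD filter, the mean of probe sets, another quantile normalization and the replicate block.

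A second Ezh1 probe set did not follow the main one in clones. It was lower in cloned than in IVF 1-cell embryos (-1.32 ± 0.14, adjusted p = 0.00752 over all probe sets), where the main probe set read 0.75, and in clones it rose from 1-cell to 2-cell by 1.97 ± 0.27 (adjusted p = 9.81e-07) where the main one fell. At 8-cell it read -0.64 ± 0.32 between clones and IVF embryos and at the blastocyst -0.44 ± 0.21, the same direction as the main probe set but not past the threshold (adjusted p = 0.197 and 0.391). The remaining Ezh1 probe sets were nearly flat over the 51 arrays (SD 0.233 and 0.11). The Ezh1 calls above are those of 1 of 2 responsive probe sets.

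**Figure D2:**
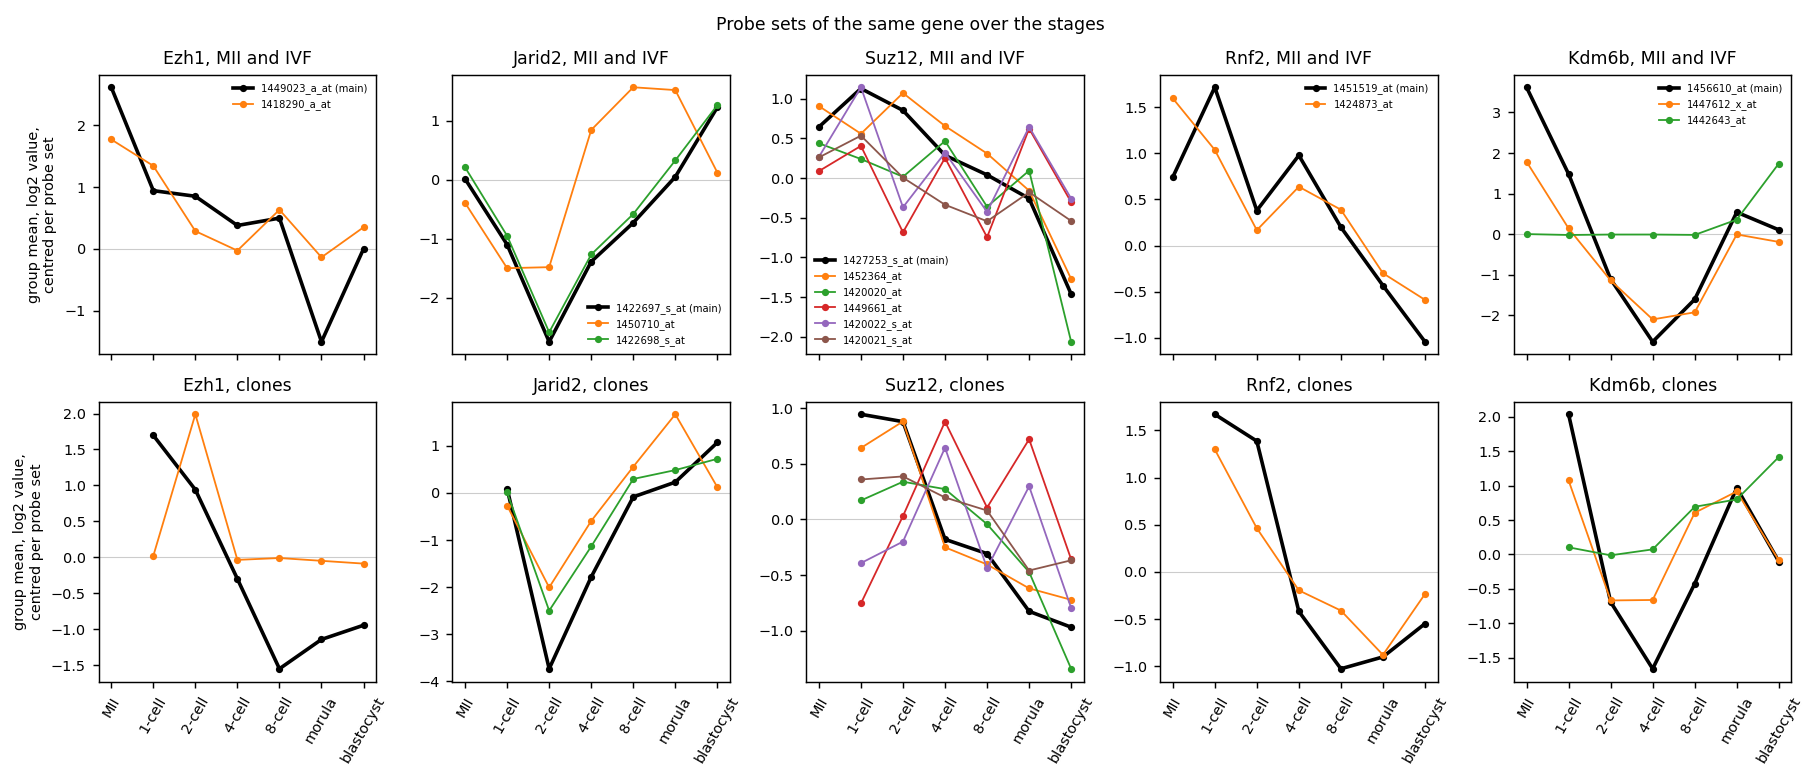
Group means of every responsive probe set (SD over 51 arrays of at least 0.313, a limit set after the values were seen) of Ezh1, Jarid2, Suz12, Rnf2 and Kdm6b by stage, in log2 values centred per probe set, with the main probe set in black. The second Ezh1 probe set peaks in cloned 2-cell embryos where the main one falls, and the Suz12 probe sets part at the 4-cell stage and the morula.

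Eed, the subunit that binds the mark, fell at the 2-cell stage like Ezh2. IVF zygotes read 1.19, 1.33 and 1.66 and IVF 2-cell embryos 0.58, -0.13 and -0.20 (difference -1.32 ± 0.21, adjusted p = 7.65e-05). Clones fell from between 0.98 and 1.70 to between -0.53 and -0.20 (difference -1.83 ± 0.30, adjusted p = 1.29e-05). After that no step of Eed passed the threshold in either series. With another quantile normalization the clone steps from 2-cell to 4-cell and from 4-cell to 8-cell did (-0.98 and 1.04, adjusted p = 0.0201 and 0.0307). Eed was below IVF on the mean at each stage from 2-cell on, by -0.31 to -0.90, with no single stage past the threshold (adjusted p from 0.139 to 0.836). The 4-cell difference of -0.90 ± 0.51 included 1 clone, replicate 5, at -2.62, and was -0.52 ± 0.19 without it (adjusted p = 0.312). With the hybridisation controls as a covariate it was 2.03 ± 1.61 (adjusted p = 0.711). At 8-cell Eed was -0.44 ± 0.19 (adjusted p = 0.179), and -0.57 ± 0.085 without the array labelled replicate 4, past the threshold (adjusted p = 0.0276). Averaged over stages the difference was -0.41 ± 0.13, or 1.33-fold (adjusted p = 0.0163). Of 2 Eed probe sets the second was flat (SD 0.043).

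Suz12, the scaffold of the complex, was highest at the 1-cell stage and lowest at the blastocyst in IVF embryos. In IVF embryos its main probe set rose by 0.48 ± 0.13 from MII to 1-cell and fell by 0.57 ± 0.13 from 2-cell to 4-cell and by 1.21 ± 0.13 from morula to blastocyst (adjusted p = 0.00868, 0.00442 and 7.78e-06). After another quantile normalization the second of these was lost too (-0.36, adjusted p = 0.179). IVF morulae read -0.16, -0.13 and -0.48, and blastocysts -1.48, -1.59 and -1.32. In clones it fell by 1.06 ± 0.26 from 2-cell to 4-cell (adjusted p = 0.00273), the only clone step called. As a mean of the 6 Suz12 probe sets this clone step was not past the threshold (adjusted p = 0.678), and the fourth and the fifth by SD read above 0. Cloned blastocysts read -0.93, -0.70, -0.89, -1.13 and -1.18, all above the IVF blastocysts, with a difference of 0.49 ± 0.12 that was not past the threshold (adjusted p = 0.0695). The 6 Suz12 probe sets disagreed: at 2-cell to 4-cell the third, the fifth and the fourth by SD read 0.45, 0.69 and 0.94 in IVF embryos, the last 2 past the threshold (adjusted p = 0.0305 and 0.00458). The early rise was also not seen in the third (-0.20) and the second (-0.35). The IVF fall from morula to blastocyst had the same direction in all 6. At 1-cell the fifth was lower in clones (-1.54 ± 0.22, adjusted p = 0.0177), where the main probe set read -0.19.

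Jarid2, the accessory subunit, dipped at the 2-cell stage and rose afterwards to its highest mean at the blastocyst. IVF embryos fell from 0.12, -0.12 and 0.04 in oocytes to -1.11, -1.46 and -0.73 at 1-cell (difference -1.12 ± 0.37, adjusted p = 0.0305), but cloned 1-cell embryos read 0.08, 0.18, 0.20, 0.11 and -0.11, overlapping the oocytes (difference from MII 0.07 ± 0.085). Jarid2 was thus 2.28-fold higher in cloned than in IVF zygotes (difference 1.19 ± 0.16, adjusted p = 0.0112), without overlap, the only member called where 6.31% of all genes were. The other Jarid2 probe sets read 0.96 ± 0.15 and 1.23 ± 0.24 (adjusted p = 0.0233 and 0.0466). With the hybridisation controls as a covariate the difference was 1.08 ± 0.23 (adjusted p = 0.085). At the same stage the mean of the 4 genes of the 2-cell embryo was 0.88 to 1.38 in clones and 3.09 to 4.70 in IVF embryos. The mean of 9 oocyte genes was 6.16 to 6.39 in clones and 5.36 to 5.66 in IVF embryos, also without overlap and higher in clones like Jarid2. The part of both lists was not tested.

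At 2-cell the order was turned. Cloned 2-cell embryos read -3.52, -3.45, -3.81, -3.32 and -4.57 for Jarid2, all below the IVF values of -2.36, -3.13 and -2.77, with a difference of -0.98 ± 0.32 that was not past the threshold (adjusted p = 0.212) and was above 0 with the hybridisation controls as a covariate (0.40 ± 0.84). The fall from 1-cell to 2-cell was 14.2-fold in clones (difference -3.83 ± 0.32, adjusted p = 1.14e-10) and 3.14-fold in IVF embryos (-1.65 ± 0.37, adjusted p = 0.00187). These falls differed by -2.17 ± 0.51 (interaction, adjusted p = 0.00249), which was lost after another quantile normalization (-1.40, adjusted p = 0.440). The second Jarid2 probe set showed no IVF fall at this step (0.02 ± 0.33) and the third did (-1.64 ± 0.28, adjusted p = 0.000299 over all probe sets). Their interactions of -1.76 and -0.87 were not past the threshold (adjusted p = 0.0552 and 0.204). Jarid2 then rose from 2-cell to 4-cell in both series, by 1.36 in IVF embryos and 1.95 in clones (adjusted p = 0.0132 and 2.79e-05), the first of these lost after another quantile normalization (0.99, adjusted p = 0.318). It rose again from 4-cell to 8-cell in clones, by 1.70 ± 0.32 (adjusted p = 0.00119, and 1.67 with adjusted p = 0.00342 without the array labelled replicate 4), and from morula to blastocyst by 1.18 in IVF embryos and 0.84 in clones (adjusted p = 0.0312 and 0.0433). Both of these were lost after another quantile normalization (1.25 and 0.47, adjusted p = 0.187 and 0.480). For the last step the second probe set fell instead, by 1.40 and 1.55 (adjusted p = 0.00717 and 0.00411). The clone call there was lost without any 1 of the 10 arrays of that step. At the blastocyst the third probe set was lower in clones (-0.55 ± 0.07, adjusted p = 0.0135), where the main one read -0.16.

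Of the PRC1 ligases, Rnf2 carried the differences between series. It rose at 1-cell from 0.59, 0.91 and 0.72 in oocytes to 1.78, 1.60 and 1.78 in IVF embryos (difference 0.98 ± 0.23, adjusted p = 0.00411) and to between 1.36 and 1.98 in clones (0.93 ± 0.15, adjusted p = 0.00512). A second probe set read -0.56 ± 0.14 for the first of these steps (adjusted p = 0.00907) and -0.30 for the second. IVF 2-cell embryos fell to 0.03, 0.19 and 0.92 (difference -1.34 ± 0.23, adjusted p = 0.000229), a call lost after another quantile normalization (-0.78 ± 0.30, adjusted p = 0.0800), while cloned 2-cell embryos read 1.34, 1.68, 1.56, 1.42 and 0.92 and had not fallen past the threshold (-0.28 ± 0.32, adjusted p = 0.620). From 2-cell to 4-cell the clones fell by 3.49-fold (-1.80 ± 0.32, adjusted p = 7.95e-05), where the IVF step was 0.60 ± 0.23 (adjusted p = 0.0814). The 1-cell to 2-cell steps differed by 1.05 ± 0.46 (interaction, adjusted p = 0.149, and 0.0471 without cloned 4-cell replicate 5, which enters the shared spread). The 2-cell to 4-cell step differed between series by -2.40 ± 0.46 (interaction, adjusted p = 0.00165). The second probe set gave -1.13 ± 0.30 (adjusted p = 0.0334), and without the lowest cloned 4-cell embryo, replicate 5, the difference was -2.01 (adjusted p = 0.000853).

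Cloned 4-cell embryos spread from -1.996 to 0.80 for Rnf2, the widest of its groups, against 0.71 to 1.52 in IVF embryos, and the difference of -1.40 ± 0.65 was not past the threshold (adjusted p = 0.418) and was above 0 with the hybridisation controls as a covariate (3.58, adjusted p = 0.607). At 8-cell the clones read -0.73, -1.19, -1.59, -0.89 and -0.72 and the IVF embryos 0.52, 0.00 and 0.07. The 2.34-fold difference (-1.22 ± 0.24, adjusted p = 0.0365) was lost when any IVF array, or clone 2 or 4, was left out. Without the array labelled replicate 4 it was -1.26 ± 0.27 (adjusted p = 0.0597), with the hybridisation controls as a covariate -1.25 ± 0.45 (adjusted p = 0.424), and as a mean of 5 probe sets -0.38 ± 0.09 (adjusted p = 0.0554). At the blastocyst the order was the reverse: clones read -0.65, -0.56, -0.56, -0.51 and -0.46 and IVF embryos -1.07, -1.17 and -0.89, a 1.41-fold difference (0.50 ± 0.07, adjusted p = 0.0143). This held with the hybridisation controls as a covariate (0.40 ± 0.07, adjusted p = 0.0493) and with each array left out, but not with 1 spread shared by all 51 arrays (adjusted p = 0.806), and it was 0.18 ± 0.03 as a mean of 5 probe sets (adjusted p = 0.028). The second probe set read 0.36 ± 0.09 (adjusted p = 0.0934). The 3 other Rnf2 probe sets were flat, with SDs from 0.018 to 0.073.

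Ring1, with 1 probe set, lay between -0.35 and -0.20 in oocytes and IVF 1-cell and 2-cell embryos and varied between embryos from the 4-cell stage on. IVF 8-cell embryos read -0.01, 1.41 and -0.01, and cloned 8-cell embryos 1.31, 1.26, 1.23, -0.10 and 0.01, so each group held both high and low embryos. IVF blastocysts read 1.07, 0.89 and 0.93, above all 9 oocytes, zygotes and 2-cell embryos of the IVF series. No single step and no stage difference of Ring1 passed the threshold in either series, with clone differences from -0.57 to 0.27.

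Kdm6b, the demethylase, showed the widest range of the 8 genes. MII oocytes read 3.68, 3.51 and 3.67 and IVF 1-cell embryos 1.61, 1.75 and 1.09, a 4.40-fold fall (difference -2.14 ± 0.48, adjusted p = 0.00237). Clones at 1-cell lay between 1.64 and 2.41 (difference from MII -1.58 ± 0.19, adjusted p = 0.00159). Both series fell again at 2-cell, by 6.03-fold in IVF embryos (-2.59 ± 0.48, adjusted p = 0.000358) and 6.63-fold in clones (-2.73 ± 0.72, adjusted p = 0.00264). The clone call was lost after another quantile normalization (-1.61 ± 0.83, adjusted p = 0.189). IVF embryos fell further to -3.21, -2.75 and -1.998 at 4-cell (-1.54 ± 0.48, adjusted p = 0.0275) and rose from 8-cell to morula by 2.15 ± 0.48 (adjusted p = 0.00487), to 0.55, 0.53 and 0.54. The 4-cell clones ran from -4.12 to 0.02 and 8-cell clones from -3.59 to 1.71, and no later clone step passed the threshold. On this probe set no stage difference between clones and IVF embryos passed it either, with standard errors of 1.05 and 1.14 at 4-cell and 8-cell. The second probe set, however, was higher in cloned than in IVF 8-cell embryos (2.53 ± 0.30, adjusted p = 0.0136 over all probe sets, and 2.63 ± 0.31 with adjusted p = 0.0229 without the array labelled replicate 4), where the main one read 1.18. The third was flat from MII to the 8-cell stage of the IVF series and rose from morula to blastocyst (1.38 ± 0.37, adjusted p = 0.0138).

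**Figure D3:**
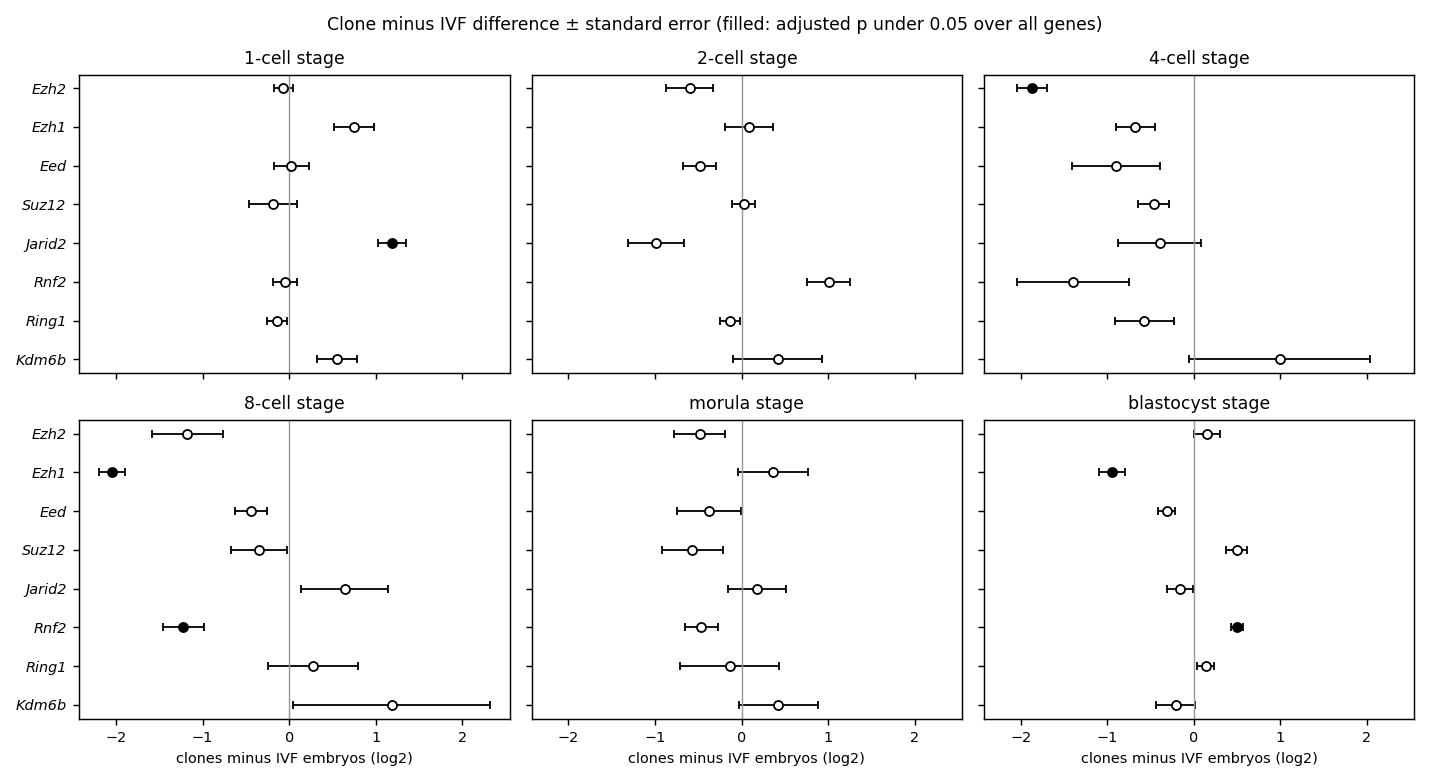
Difference between 5 clones and 3 IVF embryos (log2, points) with its standard error (bars) for the 8 genes at each stage; filled points are past an adjusted p of 0.05 over all genes. The 6 filled points are Jarid2 at 1-cell, Ezh2 at 4-cell, Ezh1 and Rnf2 at 8-cell and Ezh1 and Rnf2 at the blastocyst, where Rnf2 lies above 0.

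By stage, 1 member was called at 1-cell (6.31% of all genes), 0 at 2-cell (2.37%) and 1 at 4-cell (2.26%). At 8-cell 2 were called (6.62%), at the morula 0 (0.165%) and at the blastocyst 2 (6.18%). At 2-cell 3 members and 2717 of 18193 genes had an unadjusted p under 0.05 in limma, and at the morula 0 members and 1820 genes. The 8-cell calls stood beside other differences of the same arrays: the mean of the 4 genes of the 2-cell embryo was -0.95 to 0.45 in clones and 2.35 to 4.96 in IVF embryos. The mean of 9 oocyte genes was -1.22 to -0.79 in clones and 0.09 to 0.49 in IVF embryos, and that of 7 inner cell mass genes -0.53 to 0.71 against 1.31 to 1.74. At the blastocyst the inner cell mass mean was 0.77 to 1.89 in clones and 2.16 to 2.38 in IVF embryos, and the Gapdh 3′ minus 5′ difference was 1.11 higher in clones (exact permutation test, p = 0.0357, adjusted 0.107). The part of these values in the Ezh1 and Rnf2 results was not tested.

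From MII to IVF 1-cell 5 of 8 members were called (30.6% of all genes), 2 higher and 3 lower. From 1-cell to 2-cell all 5 called members fell (35.9%), and the differences of the other 3 were below 0 too. From 2-cell to 4-cell 3 were called (23.8%) and from 4-cell to 8-cell 0 (1.98%). At 4-cell to 8-cell 3 members and 2519 of 18193 genes had an unadjusted p under 0.05 in limma. From 8-cell to morula 2 were called (17.2%) and from morula to blastocyst 3 (22.6%). Over these 6 steps 18 of 48 tests were called, 37.5% beside 22% over all genes. From MII to cloned 1-cell embryos 3 members were called (25.7%). In clones 5 members fell from 1-cell to 2-cell (41.3% of all genes called), and from 2-cell to 4-cell 4 fell and Jarid2 rose (29.9%). From 4-cell to 8-cell 2 were called (6.5%), from 8-cell to morula 0 (17.4%) and from morula to blastocyst 1 (34.5%). At the clone step from 8-cell to morula 0 members and 5325 of 18193 genes had an unadjusted p under 0.05 in limma. Together 13 of 40 clone tests were called, 32.5% beside 25.9%. For the difference between a clone step and the IVF step, the members called were Jarid2 at 1-cell to 2-cell (11.2% of all genes), Rnf2 at 2-cell to 4-cell (2.64%), Ezh1 at 4-cell to 8-cell (1.31%) and at 8-cell to morula (5.66%), and 0 at morula to blastocyst (1.62%). These make 4 of 40, 10% beside 4.49%. Ezh2 at 2-cell to 4-cell was just outside (-1.27 ± 0.37, adjusted p = 0.0522). It was inside without the cloned 8-cell array labelled replicate 4 (adjusted p = 0.0108) and after another quantile normalization (-2.19 ± 0.47, adjusted p = 0.00494).

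**Figure D4:**
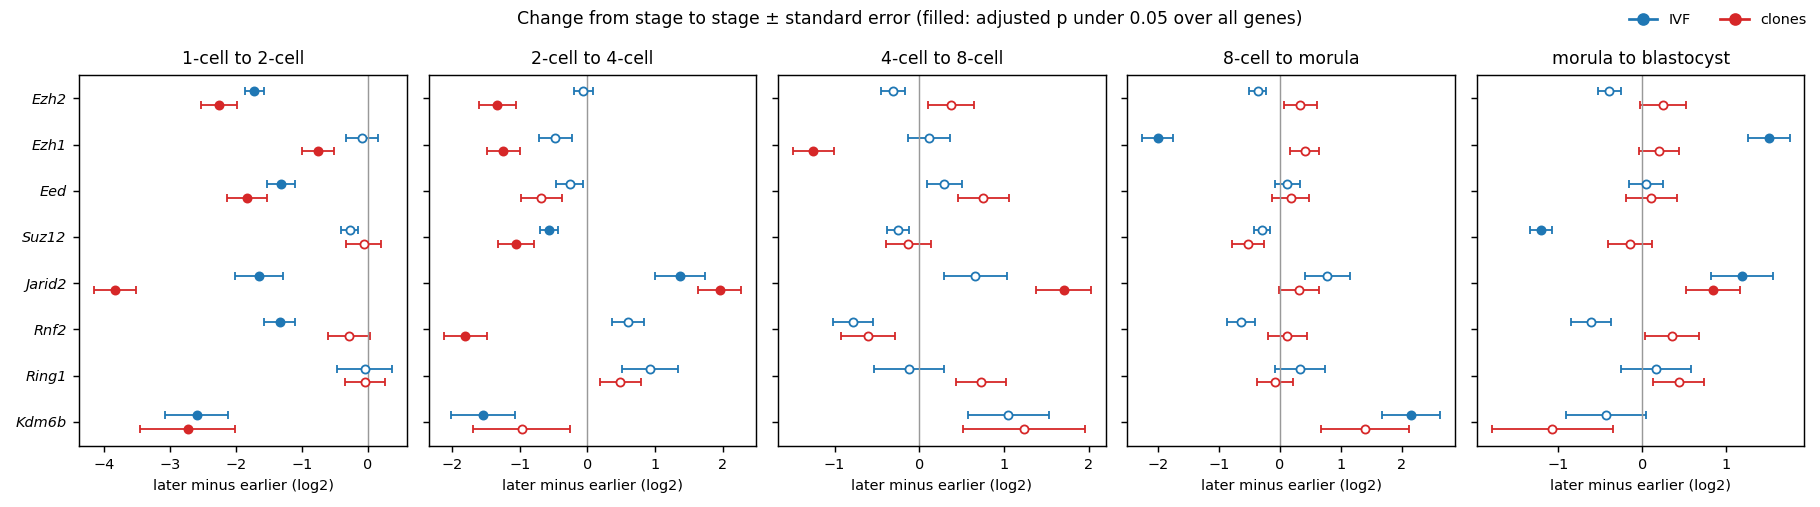
Change from each stage to the next (log2, later minus earlier) with its standard error for IVF embryos (blue) and clones (red); filled points are past an adjusted p of 0.05 over all genes. Rnf2 falls at 1-cell to 2-cell in IVF embryos and at 2-cell to 4-cell in clones, and Ezh1 falls at 8-cell to morula in IVF embryos and at the 3 earlier steps in clones.

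The wider machinery was read from 7 lists of other genes. These held 53 genes listed with Polycomb complexes, their DNA-binding partners and the enzymes that oppose H3K27 methylation, and a list of developmental genes. Among the 53 genes 7 tests were higher and 15 lower in clones out of 318, or 6.92%, beside 3.99% over all genes. With the hybridisation controls as a covariate 0 of 18193 genes were called at 2-cell and at 4-cell. All list calls at these stages, in this paragraph and the next, were thus lost. At 8-cell that fit called 17 genes, and list genes are not given with it at the other stages. Of 8 PRC2 partners 1 passed at any stage, Phf1, a Tudor-domain subunit, at the blastocyst (-0.71 ± 0.10, adjusted p = 0.016). Of 10 canonical PRC1 genes 2 tests were higher and 2 lower: the chromodomain genes Cbx2 at 1-cell (0.94) and Cbx7 at the blastocyst (-2.97 ± 0.35, adjusted p = 0.00943), and at 2-cell Bmi1, a partner of the ligases (1.14), and Phc2 (-0.97). Of 12 variant PRC1 genes 2 tests were higher, both Kdm2b, which binds CpG islands (0.56 at 8-cell and 0.58 at the blastocyst). In the same list 5 tests were lower, L3mbtl2 at 2-cell (-1.03) and 8-cell (-1.14), E2f6 at 8-cell (-0.82), Pcgf6 at 1-cell (-0.68) and Mga at the blastocyst (-0.83). The variant list's median lay between -0.92 and -0.14 over the stages, beside -0.01 to 0.04 for all genes.

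Of 7 genes of the complex that removes H2A ubiquitin, 2 tests were higher, the forkhead genes Foxk1 (2.43 ± 0.31, adjusted p = 0.00997) and Foxk2 (1.74 ± 0.16, adjusted p = 0.00359), both at 1-cell (6.31% of all genes). Of 5 genes listed with PhoRC and DNA-binding factors, not all of them subunits of PhoRC, 3 tests were lower. They were Sfmbt1 at 1-cell (-0.49) and Mbtd1 at 2-cell (-0.69) and 4-cell (-1.53 ± 0.18, adjusted p = 0.0114), the Mbtd1 calls being lost with the hybridisation covariate. Of 11 genes that oppose H3K27 methylation, the H3K4 methylation subunit Rbbp5 was higher at 1-cell (0.82). At the blastocyst, where 6.18% of all genes were called, 4 of the 11 were lower. They were the acetyltransferases Crebbp (-0.83 ± 0.05, adjusted p = 0.00164) and Ep300 (-0.62) and the H3K4 methylation genes Wdr5 (-0.62) and Kmt2c (-1.02). Of 23 developmental genes that PRC2 is known to repress in pluripotent cells, 2 tests were higher and 2 lower of 138, or 2.90%, below the 3.99% over all genes: Hoxa5 at 2-cell (1.88) and 8-cell (3.09), and Pax6 (-5.82 ± 0.12, adjusted p = 1.68e-05) and Gata4 (-4.27 ± 0.53, adjusted p = 0.00997), both at 8-cell. Without the array labelled replicate 4 the 8-cell values of Pax6, Gata4, Hoxa5, L3mbtl2 and E2f6 stayed past the threshold (-5.83, -4.16, 2.99, -1.26 and -0.90, adjusted p at most 0.0431), and Kdm2b did not (0.60 ± 0.12, adjusted p = 0.0503). The developmental list's median was within -0.02 to 0.06 at every stage.

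The PRC2 partners given next were called in both series at the same step, among those named by adjusted p. Mtf2, a subunit that guides PRC2 to CpG islands, rose from 1-cell to 2-cell by 5.46 ± 0.95 in IVF embryos and 3.25 ± 0.67 in clones (adjusted p = 0.000208 and 0.000216). Rbbp7 (-1.42 and -1.47, adjusted p = 0.000398 and 2.26e-08) and Rbbp4 (-1.16 and -1.66, adjusted p = 0.0187 and 0.0122) fell at that step. Of the 8 partners 1 rose and 3 fell there in IVF embryos (35.9% of all genes called). In clones 2 rose and 3 fell (41.3%). Phf1 fell from 2-cell to 4-cell in both series (-4.16 ± 0.39 and -4.94 ± 0.20, adjusted p = 2.82e-06 and 6.75e-16), and Aebp2, a subunit of the other PRC2 class, rose there by 2.08 and 2.46 (adjusted p = 0.025 and 2.16e-05). Lcor also fell there (-1.92 and -3.51, adjusted p = 0.023 and 7.15e-08). Epop rose from morula to blastocyst by 2.13 and 2.95 (adjusted p = 0.0118 and 3.84e-08), and Rbbp4 fell (-2.44 and -1.66, adjusted p = 0.000168 and 0.0177).

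As a description over the 13 group means, which share arrays of 1 platform and the same stages, Ezh2 and Eed had a Pearson r of 0.90, Ezh2 and Ezh1 0.81, Suz12 and Rnf2 0.90, and Suz12 and Ring1 -0.89, while Ezh2 and Jarid2 had -0.03. Among 16259 genes the 3 most like each member over the 13 means were, in order, Rnf34, Tcaim and Zfp276 for Ezh2 (r from 0.96 to 0.97), Kdm5c, Ankrd6 and Glt8d1 for Ezh1 (0.95 to 0.96), Hivep1, Zscan21 and Aplf for Eed (0.94 to 0.96) and Parp12, Unc13c and Tiparp for Suz12 (0.97 each). For Jarid2 they were Ak4, Limd2 and Mrpl24 (0.94 to 0.96), for Ring1 Uevld, Actb and Acadl (0.97 to 0.98), for Rnf2 Fam53c, Tmem248 and Ppa1 (0.93 to 0.94) and for Kdm6b Ncoa4, Adcy9 and Dazap2 (0.95 each).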

How the data were processed

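Single oocytes and embryos were arrayed after total RNA extraction and 2 cycles of cRNA amplification and biotin labelling, per the labels' protocols. The authors deposited log2 values made with RMA, per the submitters' processing notes; the log base and the centring of each probe set were read from the values (94.3% of probe sets hold exactly 1 array at 0). Detection calls were not used here. Precision is limited by the number of arrays, since arrays carry no depth.

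Of 45101 probe sets 34945 carried 1 gene symbol, giving 18193 genes, each read from its probe set with the largest SD. Clones and IVF embryos were compared within each stage. Stage steps were fitted in the 21 MII and IVF and the 30 clone arrays, and interactions in all 51. Tests used limma 3.58.1 (lmFit, eBayes) in R 4.3.3 with Benjamini-Hochberg adjustment over all genes, a threshold of 0.05 and no filter, and were tested on simulated data. All 8 members are named in each comparison, up to 4 genes of each other list by adjusted p, and the 3 genes most alike over group means. The members and lists were chosen with earlier results of these data known. Gene positions are GRCm38.p6 (RefSeq). Alternatives were array centring, quantile normalization, other probe sets or their mean, an SD filter, a trend and robust variance model, 1 shared spread, a 2-fold limit, a hybridisation covariate, a replicate block and leaving out each array. The 8-cell fits of list genes and other probe sets without the clone labelled replicate 4 were added after seeing the data.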

Additional observations from a re-analysis of the deposited data

Results flagged for a closer look

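Among 48 groups of 5 clones, 2 held an embryo far from the others by Dixon's criterion, where chance gives about 1 in 20. Ezh2 in cloned morula replicate 4 read 0.475, against -0.84 to -0.50 in the other 4, and Ring1 in cloned blastocyst replicate 5 read 1.365, against 1.00 to 1.06. Without that morula the Ezh2 difference between cloned and IVF morulae went from -0.48 to -0.71 (limma, adjusted p = 0.0894).

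In 4 cases the step of a gene from 1 stage to the next differed between clones and IVF embryos by an interaction test in limma. The difference was -2.175 for Jarid2 from 1-cell to 2-cell (adjusted p = 0.00249) and -2.402 for Rnf2 from 2-cell to 4-cell (adjusted p = 0.00165). For Ezh1 it was -1.370 from 4-cell to 8-cell (adjusted p = 0.0484, lost under 5 of 7 processing alternatives) and 2.411 from 8-cell to morula (adjusted p = 2.98e-05). Both Ezh1 values share the 8-cell arrays.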

How the results depend on the processing

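The number of members called between clones and IVF embryos, 6 of 48, was 2 with the hybridisation controls as a covariate (1 kept, Rnf2 at the blastocyst, and 1 gained, Ezh1 at 1-cell) and 0 (limma, adjusted p over all genes) with the replicate number as a block, where clones 4 and 5 have no IVF partner and 37 genes were called at 1-cell and 0 at each of the other 5 stages. Same-numbered clones and IVF embryos correlated between -0.204 and 0.102 in their deviations over 18 pairs and neighbouring stages between -0.056 and 0.135 over 43, so the numbers do not pair the embryos. With the block the IVF steps gave 18 calls, the clone steps 12, MII to cloned 1-cell 2, the differences of steps 3 and the mean over stages 4. Leaving out each array gave 5 to 6 calls between series, 17 to 21 for IVF steps, 12 to 14 for clone steps, 2 to 3 from MII to cloned 1-cell, 3 to 6 for differences of steps and 3 to 4 for the mean. Every other setting kept these 6 counts within 1.5 times. Of 47 member calls, another quantile normalization ended 16, the mean of a gene's probe sets 11, the replicate block 10, the SD filter and every probe set tested 1 each, and array centring and the trend model 0. The 16 were the 5 from MII to IVF 1-cell and Ezh1 from MII to cloned 1-cell, Rnf2 at IVF 1-cell to 2-cell, Jarid2 and Suz12 at IVF 2-cell to 4-cell, Jarid2 at morula to blastocyst in both series, Ezh1 and Kdm6b at cloned 1-cell to 2-cell, Rnf2 between series at 8-cell, and the differences of steps of Jarid2 and of Ezh1 at 4-cell to 8-cell. Another quantile normalization, run on the deposited RMA values centred per probe set, also brought limma calls. Among them were the differences of steps of Ezh1 at morula to blastocyst (-2.69, adjusted p = 4.37e-05) and Ezh2 at 2-cell to 4-cell (-2.19, adjusted p = 0.00494). Rnf2 was called at each IVF step from 2-cell on (adjusted p from 0.008 to 0.0177) and Ezh2 at IVF morula to blastocyst (-0.83, adjusted p = 0.0234). A shared spread ended 5 of 37 and the 2-fold limit 2 of 6.

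Direction turned in 28 cases where either value was called, all but 1 of them with other probe sets (numbered by SD) or their mean, where the cause was not tested. Ezh1 with the second probe set was -1.325 between series at 1-cell, 1.969 and 0.026 for the clone steps to 2-cell and from 4-cell to 8-cell, and 3.026 for the difference of steps to 2-cell, with means of probe sets of 0.329 and 0.599 and 0.148 after quantile normalization for the clone step. Jarid2 with the second was 0.017 for the IVF step to 2-cell and -1.402 and -1.548 for the steps to the blastocyst (mean of probe sets -0.155 in clones). Kdm6b with the third was 0.011, 0.000 and 1.383 for the IVF steps to 2-cell, 4-cell and blastocyst and 0.102 from MII to cloned 1-cell. Rnf2 with the second was -0.560 and -0.302 from MII to IVF and cloned 1-cell. Suz12 was -0.199 (the third) and -0.349 (the second) from MII to IVF 1-cell. For the IVF step to 4-cell it was 0.125 (mean), 0.451 (the third), 0.688 (the fifth) and 0.938 (the fourth). For 8-cell to morula the fifth and the fourth gave 1.070 and 1.369, for the clone step to 4-cell 0.843 and 0.848, and the fourth gave 0.784 for the clone step to 2-cell. Under the hybridisation covariate the sign also turned for 13 of 48 stage differences, none called either way. Flat probe sets, 6 of 25 with an SD of 0.0176 to 0.233, were left out of these, a limit set after the data were seen. Left-out arrays also ended these IVF calls: Jarid2 from MII to 1-cell (any oocyte, zygote 1 or 2), from 2-cell to 4-cell (2-cell 2) and from morula to blastocyst (morula 1 or 3, blastocyst 2 or 3), Suz12 from MII to 1-cell (zygote 3) and Kdm6b from 2-cell to 4-cell (replicate 1 or 2 of either stage).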
